A study of Mus musculus with 16 samples.

Results

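Collagen genes encode the alpha chains from which every collagen protein is wound. All protein-coding genes of the deposited table whose symbol is Col, a number, the letter a and a second number were taken, which gave 44 chain genes among 32078 genes. They were grouped by the structure their proteins form: 11 fibrillar chains, 10 chains of the basement membrane zone and 23 others. The tissue was labelled whole skin of 7-week-old mice under topical treatment. SDS is sodium dodecyl sulfate, a detergent that irritates skin, and Topsym is a trade name of the topical glucocorticoid fluocinonide. The 16 libraries form 8 groups of 2: SDS alone at days 0, 1, 3 and 5, and SDS with Topsym at the same days. SDS is in the name of every group, so no group at any day is labelled free of it, and the Topsym label is carried from day 0 on. Treatment lasted 4 days per the labels, while the sample names run to day 5, and the sources used here do not say when SDS and Topsym were applied relative to these days. Nor do they give strain, sex or genotype, or say if both libraries of a group are from different mice, so the p-values below measure the spread between libraries, which may be technical. The series' design text describes fatty acids and sorted hair follicle stem cells, and the groups here follow the sample labels instead.

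Each collagen molecule is a triple helix of 3 alpha chains, which are hydroxylated and folded in the endoplasmic reticulum, secreted, trimmed and cross-linked. In skin, dermal fibroblasts make most of types I, III, V and VI, which build and coat the fibrils of the dermis. Type IV forms the sheet of basement membranes under the epidermis and around blood vessels, and types VII and XVII fasten basal keratinocytes to it. Glucocorticoids are known to lower collagen synthesis in skin, and thinning of the dermis is a known effect of their topical use.

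Levels are given as normalised reads, which the authors made by dividing the reads of a gene by a size factor of the library. A library held 15199656 to 32066246 reads in genes. Between 22875 and 23740 genes were detected in the libraries of days 0 to 3, and 19885 to 20774 in the 4 libraries of day 5. Markers of keratinocytes, fibroblasts, endothelium and muscle were at 0 in no library, while of 7 measured cartilage and bone markers 1 to 5 were at 0. In whole skin, fewer cells of a type and less RNA per cell cannot be told apart, and this applies to every change below. A chain was called higher or lower at a limma adjusted p of 0.05 over the 19189 genes tested, on the scale of log2(normalised reads + 1). Of the 44 chains, 39 passed the filter of at least 10 normalised reads in at least 2 libraries.

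The stretches before the starts of 4 chains with different courses are shown side by side, and no result below rests on them. Each window is the 250 bases before the start of transcription in the sense of the gene, from RefSeq on GRCm38.p6. Col3a1 and Col5a1 encode fibrillar chains that fell in both arms, Col6a3 is the type VI chain with the largest difference between the arms at day 0, and Col7a1 is a keratinocyte chain with nearly the same course in both arms. Capitals mark matches of 3 motifs on either strand: the CCAAT box, spelled CCAAT, the GC box, spelled GGGCGG, and the TATA box, spelled TATAAA. None of these overlaps another.
Col3a1, chr1:45311288-45311537, plus strand: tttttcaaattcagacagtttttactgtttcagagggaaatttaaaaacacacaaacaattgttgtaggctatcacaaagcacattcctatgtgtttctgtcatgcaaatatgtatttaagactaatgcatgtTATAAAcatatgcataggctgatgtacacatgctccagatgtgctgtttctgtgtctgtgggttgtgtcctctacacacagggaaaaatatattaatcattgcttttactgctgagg
Col5a1, chr2:27886175-27886424, plus strand: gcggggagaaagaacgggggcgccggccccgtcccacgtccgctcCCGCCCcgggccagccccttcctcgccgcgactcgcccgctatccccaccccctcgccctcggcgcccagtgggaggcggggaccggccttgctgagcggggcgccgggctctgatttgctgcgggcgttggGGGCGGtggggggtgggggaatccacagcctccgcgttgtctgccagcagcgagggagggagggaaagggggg
Col6a3, chr1:90843972-90844221, minus strand: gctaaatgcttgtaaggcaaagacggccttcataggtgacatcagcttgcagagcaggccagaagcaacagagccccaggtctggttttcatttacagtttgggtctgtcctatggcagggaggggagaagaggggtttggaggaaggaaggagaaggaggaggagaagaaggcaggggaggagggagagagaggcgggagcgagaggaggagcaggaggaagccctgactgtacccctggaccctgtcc
Col7a1, chr9:108953336-108953585, plus strand: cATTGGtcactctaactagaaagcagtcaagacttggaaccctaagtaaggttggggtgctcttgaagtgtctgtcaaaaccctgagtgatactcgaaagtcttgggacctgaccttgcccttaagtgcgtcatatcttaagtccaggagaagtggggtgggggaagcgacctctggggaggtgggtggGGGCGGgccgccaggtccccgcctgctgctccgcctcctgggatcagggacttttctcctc
The 4 windows differ in base composition, from 35.2% G and C for Col3a1 to 76.4% for Col5a1, with 57.2% for Col6a3 and 56.4% for Col7a1. With positions counted from the transcription start, Col3a1 has a TATA box match at -117, Col5a1 has GC box matches at -205 and -73, and Col7a1 has a CCAAT box match at -249 and a GC box match at -61. None of the 3 motifs was found in the Col6a3 window. Among 32851 promoter windows of the same length, the CCAAT box was found in 33.8%, the GC box in 32.7% and the TATA box in 12.4%. Of the 35 chain genes with a promoter entry, 13, 21 and 5 held them. A chain gene was counted if any of its windows matched, so these counts are not on the same basis as the shares of windows. A match is a description of the letters and not a site of binding. Col1a1, Col2a1, Col4a3, Col5a2, Col9a3, Col12a1, Col14a1, Col22a1 and Col26a1 have no entry.

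The 6 type IV genes stand as 3 head-to-head pairs, shown here because members of a pair are compared below. Col4a1, on the minus strand of chromosome 8, and Col4a2, on the plus strand, overlap by 22 bases at their starts. Col4a4 and Col4a3 start 71 bases apart on chromosome 1, and Col4a6 and Col4a5 start 1308 bases apart on the X chromosome. The capitals mark the GC box match in the first stretch.
Col4a1 and Col4a2, chr8:11312805-11312826, plus strand: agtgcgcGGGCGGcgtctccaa
Col4a4 and Col4a3, chr1:82586850-82586920, plus strand: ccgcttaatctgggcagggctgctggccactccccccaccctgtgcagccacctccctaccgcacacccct
The first is the overlap and the second the whole gap between the annotated starts. Nothing used here says whether the counting took strand into account, so reads from an overlap cannot be assigned. The overlap covers 0.295% of the exon length of Col4a1 and 0.332% of that of Col4a2. The exons of Col4a3 share 563 bases with an RNA on the opposite strand, C430014B12Rik, and those of Col9a3 share 234 bases with Tcfl5, so the reads of these 2 chains are uncertain.

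The share of all reads that came from collagen chains was lower at each later day in both arms. With SDS alone it was 1.57 and 1.66% in the libraries of day 0, 1.03 and 1.04% at day 1, 0.525 and 0.541% at day 3 and 0.204 and 0.206% at day 5. With Topsym it was 2.39 and 2.42%, 1.28 and 1.29%, 0.311 and 0.313% and 0.126 and 0.128% at the same days. The Topsym libraries were thus above those of SDS alone at days 0 and 1 and below them at days 3 and 5, with no overlap at any day. These shares are a description of 2 libraries each, where the smallest two-sided p of an exact permutation test is 0.333.

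The 3 structural groups did not share 1 course. Fibrillar chains made up 1.13 and 1.20% of reads at day 0 of SDS alone and 0.0211 and 0.0222% at day 5. Basement membrane zone chains went from 0.273 and 0.280% at day 0 to 0.360 and 0.362% at day 1 and 0.166 and 0.166% at day 5. At day 5 of SDS alone they therefore held more reads than the fibrillar and other chains together, a reversal of day 0. Col17a1 had the most reads of this group in every library, and most of the group's reads at that day. It had 34946 and 35057 normalised reads there, beside 3025 and 3176 for Col18a1 and 1262 and 1453 for Col4a1. The share of the group is thus not the course of each of its chains. At day 3 of SDS alone the basement membrane zone chains held 0.253 and 0.258%, above the 0.197 and 0.204% of fibrillar chains but below these and the other chains together. With Topsym they were above both together at day 3, where fibrillar chains held 0.0453 and 0.0454% and basement membrane zone chains 0.233 and 0.234%. The other chains held 0.168 and 0.177% at day 0 and 0.0170 and 0.0175% at day 5 of SDS alone.

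**Figure D1:**
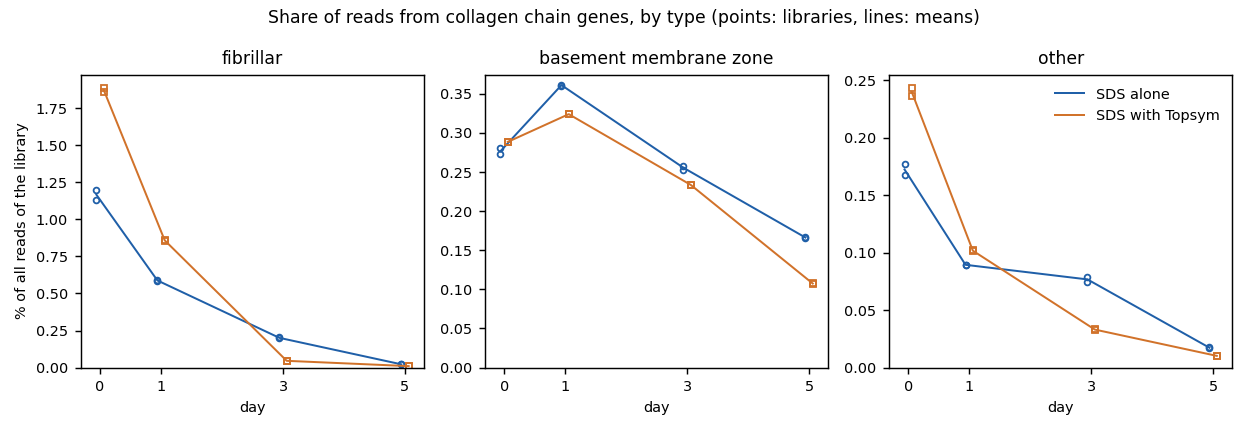
Share of all reads of a library, in percent on axes that start at 0, from fibrillar, basement membrane zone and other collagen chains by day, with points for libraries and lines through the means of SDS alone (blue) and SDS with Topsym (orange). The fibrillar share falls from 1.86 and 1.88% to 0.00946 and 0.00976% with Topsym, while the basement membrane zone share is highest at day 1 in both arms.

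Levels were also divided by exon length, to set genes of different length beside each other. This length takes the exons of all annotated transcripts of a gene together, so it can exceed that of the transcripts present. It was 12426 bases for Col1a2 and 9816 for Col3a1, against 6563 for Col1a1 and 6011 for Col17a1. The ranks by level per kilobase depend on these lengths. Per kilobase of exon, Col1a1 led at day 0 of SDS alone with 13375 ± 706 normalised reads (SD, n = 2, as for the values that follow). Col1a2, its partner chain in type I, followed at 6801 ± 313, then Col17a1, the keratinocyte chain of the hemidesmosome, at 6186 ± 108 and Col3a1 at 5776 ± 146. From day 1 of SDS alone Col17a1 ranked first of all chains, at 8201 ± 117 at day 1, 3370.3 ± 51.1 at day 3 and 5823 ± 13.1 at day 5. At day 5 the next were Col18a1 at 442 ± 15.2 and Col7a1 at 242 ± 0.306, while Col1a1 stood at 169 ± 13.9. With Topsym Col1a1 still led at days 0 and 1, and Col17a1 ranked first at days 3 and 5.

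**Figure D2:**
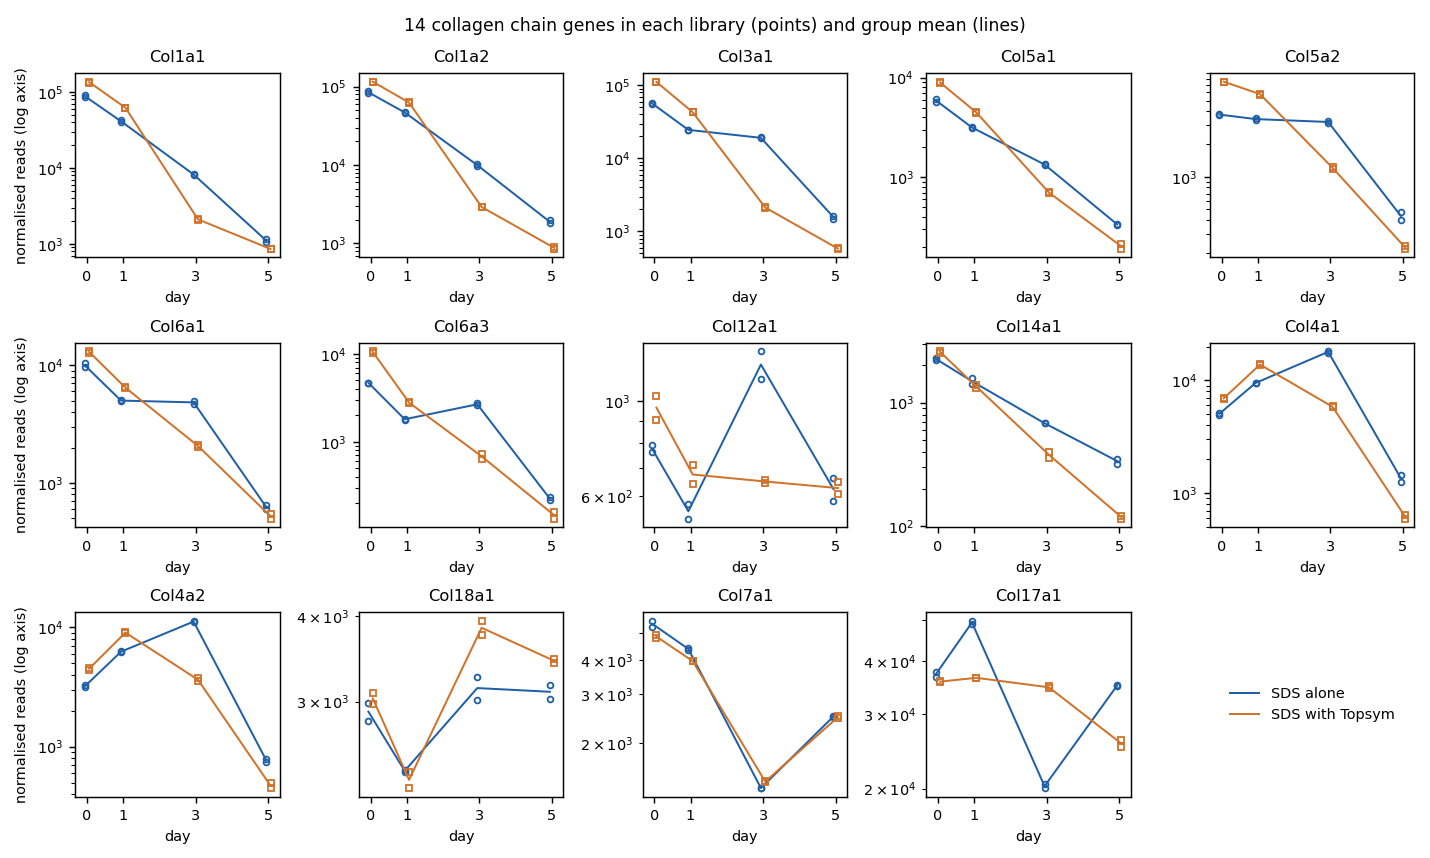
Normalised reads on log axes by day for 14 collagen chains, with points for libraries and lines through group means of SDS alone (blue) and SDS with Topsym (orange). Types I, III, V and VI lie higher with Topsym at days 0 and 1 and lower at days 3 and 5, the type IV chains Col4a1 and Col4a2 peak at day 3 of SDS alone and at day 1 with Topsym, and Col7a1 runs alike in both arms.

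The comparisons with day 0 of SDS alone ask which chains differed between day 0 and each later day of the SDS groups. At day 1, 3 of 39 chains were higher and 15 lower, beside 12.8% higher and 13.5% lower (26.2% in all) of all genes tested. The median change of the chains was -0.61. At day 3, 6 were higher and 22 lower, beside 25.4% higher and 24.2% lower (49.6% in all) of all genes. At day 5, 1 was higher and 33 lower, with a median of -2.66, beside 30.7% higher and 35.8% lower (66.5% in all) of all genes. The chain higher at day 5 was the cartilage chain Col2a1, with 11.4 and 18.4 normalised reads, which passed the filter only through that group and so had to be higher there. Between days 3 and 5, 3 chains rose and 28 fell, beside 28.9% higher and 34.5% lower (63.4% in all) of all genes. The median change of all genes lay between -0.09 and -0.01 in these 4 comparisons, against -2.66 to -0.61 for the chains.

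In the Topsym arm, 3 chains were higher at day 1 than at its own day 0 and 19 lower, beside 20.3% higher and 20.5% lower (40.8% in all) of all genes. At day 3, 1 was higher and 25 lower (median -1.41), beside 27.0% higher and 28.2% lower (55.2% in all) of all genes. At day 5, 1 was higher and 33 lower (median -3.26), beside 32.8% higher and 37.5% lower (70.2% in all). From day 3 to day 5, 1 rose and 31 fell, beside 27.1% higher and 35.1% lower (62.2% in all). The chain called higher at days 3 and 5 was Col18a1 both times, and the one that rose from day 3 to day 5 was Col7a1.

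Topsym libraries were then set against those of SDS alone at the same day. At day 0, 12 chains were higher with Topsym and 1 lower, beside 10.8% higher and 11.2% lower (22.0% in all) of all genes. At day 1, 11 were higher and 3 lower, beside 5.51% higher and 4.29% lower (9.80% in all). The balance had turned by day 3, with 3 higher and 17 lower beside 20.8% higher and 22.9% lower (43.8% in all). At day 5, 2 were higher and 23 lower beside 22.6% higher and 24.2% lower (46.8% in all). No chain passed at day 1 with a log2 difference of 1 or more. The counts by structural group show where these lie. Of the 11 fibrillar chains, 6 were higher at day 0, 6 at day 1, and 0 at days 3 and 5, when 6 and 8 were lower. The 8 and the 23 at day 5 include Col2a1, which passed the filter through the day 5 libraries of SDS alone, so that a lower level with Topsym was fixed by the filter.

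Whether the change from day 0 differed between the arms was tested by the interaction, the change with Topsym minus the change with SDS alone. At day 1, 0 chains had a higher and 3 a lower change with Topsym, beside 9.18% higher and 8.06% lower (17.2% in all) of all genes. At day 3 these were 4 and 15, beside 19.5% higher and 19.5% lower (39.0% in all), and at day 5 1 and 21, beside 17.3% higher and 17.7% lower (34.9% in all), again counting Col2a1 among the 21. Both the arms' day 0 groups enter the interaction, so the difference between them at day 0 is part of each value. At day 3, 6 of 11 fibrillar chains had a lower change with Topsym and 0 a higher one, with a median of -2.22. Of the 10 basement membrane zone chains, 4 were higher and 3 lower.

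The 4 day 5 libraries detected the fewest genes, so the counts were also taken with reads divided by library totals, a scaling added after the data were seen. It moved the median change of all genes from -0.09 to -0.42 at day 5 of SDS alone and from -0.08 to -0.64 with Topsym. Of all genes, 3874 were then higher and 9119 lower at day 5 of SDS alone, against 5897 and 6862 before, and 3129 and 10583 with Topsym, against 6286 and 7191. Among the chains, 1 was higher and 35 lower with SDS alone, and 0 and 36 with Topsym. From day 3 to day 5 the split over all genes went from 5551 and 6623 to 3862 and 8329 with SDS alone, where 3 chains rose and 32 fell. With Topsym it went from 5207 and 6736 to 2544 and 10205, where 1 chain rose and 35 fell. Between the arms at day 5 it went from 4339 and 4637 to 2415 and 6866, with 1 chain higher and 24 lower, and for the interaction from 3311 and 3390 to 1802 and 5373, with 1 and 23. The median change of the 39 chains at day 5 was far below that of all genes in both arms, whereas the small changes of Col17a1 and Col18a1 described below move with the scaling.

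**Figure D3:**
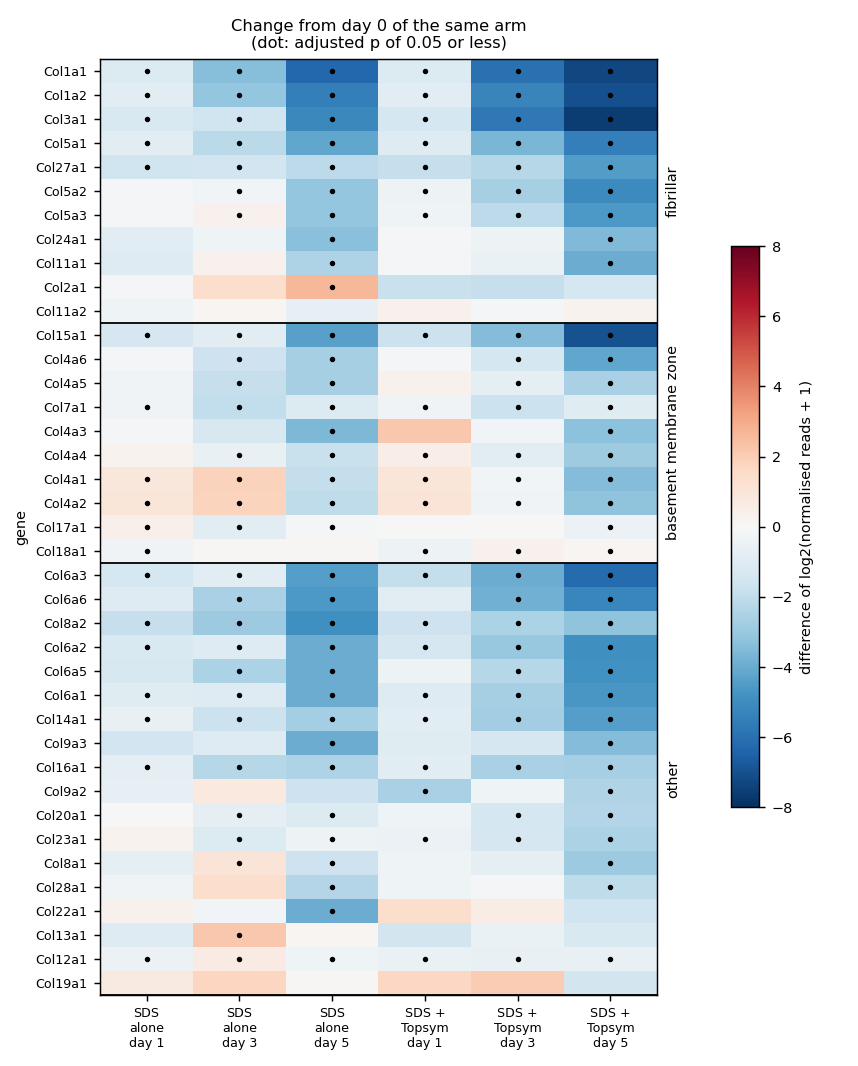
Difference of log2(normalised reads + 1) from day 0 of the same arm (colour, -8 to 8) for the 39 chains tested, in rows by structural group, with a dot at an adjusted p of 0.05 or less. Blue marks a fall: at day 5 9 of 11 fibrillar, 9 of 10 basement membrane zone and 15 of 18 other chains were lower with SDS alone, beside 35.8% of all genes.

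Types I and III, which form the thick fibrils of the dermis, fell at every day in both arms, and fell further by day 3 with Topsym. Col1a1 (ENSMUSG00000001506, chromosome 11, 94936224 to 94953042) had 84506 and 91055 normalised reads at day 0 of SDS alone, 42028 and 39872 at day 1, 8275 and 8094 at day 3 and 1044 and 1173 at day 5. With Topsym it had 136249.8 and 131795, 61932 and 61717, 2058 and 2145 and 861 and 855. Every library of a later day was below every library of an earlier day in the same arm, and the Topsym libraries went from the higher pair at days 0 and 1 to the lower pair at days 3 and 5. Against SDS alone, Col1a1 was higher at day 0 (log2 0.61, SE 0.05, adjusted p = 2.69e-07) and lower at day 3 (log2 -1.96, SE 0.05, adjusted p = 1.04e-13). At day 5 the difference was -0.37 (95% interval -0.48 to -0.25), with an adjusted p of 3.2e-05. That call was lost when only the day 5 libraries were fitted (adjusted p = 0.0578).

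Col1a2, the second chain of type I, followed the same order. It had 81761 and 87256 at day 0 of SDS alone and 47739 and 45868, 10168 and 9730.3 and 1969 and 1796 at days 1, 3 and 5. Its Topsym libraries had 115156 and 115742, 62968 and 62118, 2939 and 2889.6 and 908 and 845. The groups did not overlap within an arm. The fall from day 0 to day 3 was -3.09 with SDS alone and -5.31 with Topsym, and the interaction was log2 -2.22, SE 0.07, adjusted p = 8.42e-13.

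Col3a1 (ENSMUSG00000026043, chromosome 1, 45311538 to 45349706), the sole chain of type III, is the fibrillar chain whose course differed most between the arms. With SDS alone it had 55684 and 57716 at day 0, 24540.0 and 24663 at day 1, 19519 and 18748 at day 3 and 1640.4 and 1497 at day 5. With Topsym it had 112702 and 110479, 42997 and 42888, 2132 and 2114 and 573 and 593. Between days 1 and 3 the level fell little with SDS alone, and far more with Topsym. At day 3 the Topsym libraries were 9.01-fold below those of SDS alone (log2 -3.17, SE 0.05, adjusted p = 9.11e-17), and at day 0 they were above them (log2 0.98, adjusted p = 9.7e-11). The interaction was log2 -4.15, SE 0.06, adjusted p = 3.09e-16 at day 3 and log2 -2.40, adjusted p = 1.73e-13 at day 5. At day 1 it was -0.17 (95% interval -0.31 to -0.04), with an adjusted p of 0.0761.

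Type V chains sit inside type I fibrils and limit their width, and their 3 genes parted from each other at day 3. Col5a1 had 5748 and 6105, 3182 and 3138, 1368 and 1317 and 340.0 and 333 at days 0, 1, 3 and 5 of SDS alone. Col5a2 had 3719 and 3770.5, 3488 and 3319, 3271 and 3131 and 477 and 397. Col5a1 was thus lower at each later day, whereas Col5a2 stayed near its day 0 level until day 3. Its change at day 3 was -0.23 (adjusted p = 0.0143), a call that was lost without SDS day 0 replicate 2 (log2 -0.22, adjusted p = 0.0679) or SDS day 3 replicate 2 (log2 -0.20, adjusted p = 0.0992). Col5a3, the third type V chain, had 1031 and 1129.9 at day 0 and 1350.2 and 1369 at day 3, and its change of 0.33 passed (adjusted p = 0.0327). That call was lost without SDS day 0 replicate 1 (log2 0.27, adjusted p = 0.186), SDS day 3 replicate 1 (log2 0.34, adjusted p = 0.0982) or SDS day 3 replicate 2 (log2 0.32, adjusted p = 0.12), and when reads were scaled to library totals (adjusted p = 0.0817). At day 5 all 3 had fallen, with log2 changes of -4.13 for Col5a1, -3.10 for Col5a2 and -3.07 for Col5a3.

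With Topsym the type V chains were higher at day 0 and fell by day 3. Col5a1 had 8773 and 9125 at day 0 and 709 and 697 at day 3. Col5a2 had 7536 and 7517 and 1193 and 1228, and Col5a3 had 2251 and 2266 and 537 and 534. Against SDS alone at day 0 the differences were 0.59 for Col5a1, 1.01 for Col5a2 and 1.06 for Col5a3, all called. At day 3 they were -0.93, -1.40 and -1.34, all called in the opposite direction. The interaction at day 3 was log2 -2.41, adjusted p = 1.65e-11 for Col5a2 and log2 -2.41, adjusted p = 1.01e-08 for Col5a3.

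The remaining fibrillar chains were scarce. Col27a1, a short chain of thin fibrils in cartilage and other tissues, had 259.8 and 329 at day 0 and 101 and 89.8 at day 1 of SDS alone (log2 -1.61, SE 0.30, adjusted p = 0.000775). At day 5 it had 85.4 and 53.9 with SDS alone and 18.2 and 9.59 with Topsym, a difference of -2.27 (adjusted p = 1.4e-05) that was not called when only those 4 libraries were fitted (adjusted p = 0.069). Col24a1 was at most 29.1 and Col11a1 at most 69.1 normalised reads in any library. Both were lower at day 5 than at day 0 in both arms, Col11a1 with log2 changes of -2.50 and -3.94. The Col11a1 change with Topsym was -5.80 without Topsym day 5 replicate 1 and -2.09 without Topsym day 5 replicate 2. Its change with SDS alone was -3.11 without SDS day 5 replicate 2, and its call there was lost without SDS day 0 replicate 2 (log2 -2.17, adjusted p = 0.0853) or SDS day 5 replicate 1 (log2 -1.88, adjusted p = 0.109). Col11a2, which partners Col11a1 in cartilage, was called in 0 of the 15 comparisons, with 39.8 to 97.8 normalised reads.

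Because type I is built from 2 Col1a1 chains and 1 Col1a2 chain, and type III joins it in the same fibrils, ratios within a library were followed as well. The ratio of Col3a1 to Col1a1 was 0.634 and 0.659 at day 0 of SDS alone, 0.584 and 0.619 at day 1, 2.32 and 2.36 at day 3 and 1.28 and 1.57 at day 5. With Topsym it was 0.827 and 0.838, 0.694 and 0.695, 0.986 and 1.04 and 0.665 and 0.693. Col3a1 reads outnumbered Col1a1 reads in all 4 libraries of days 3 and 5 of SDS alone, and in 1 of the 8 Topsym libraries. Per kilobase of exon, mean Col3a1 was above Col1a1 at day 3 of SDS alone (1949 against 1247). It was below Col1a1 at day 5 of SDS alone (160 against 169) and at day 3 with Topsym (216 against 320). That order rests on the annotated exon lengths, 9816 bases for Col3a1 and 6563 for Col1a1. Which of these chains was more abundant there is thus uncertain. A ratio within a library does not depend on how that library was scaled. None of the ratios here or in the next paragraph is corrected for exon length, so they do not give proportions of chains.

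Further pairs of partner chains also drifted apart. Col1a1 to Col1a2 went from 1.03 and 1.04 at day 0 of SDS alone to 0.814 and 0.832 at day 3 and 0.530 and 0.654 at day 5. With Topsym it was 1.14 and 1.18 at day 0, 0.700 and 0.742 at day 3 and 0.949 and 1.01 at day 5, so that it was lowest at day 3. Col5a2 to Col5a1 went from 0.618 and 0.647 to 2.38 and 2.39 at day 3 of SDS alone, and from 0.824 and 0.859 to 1.68 and 1.76 with Topsym. The type IV partners kept closer: Col4a1 to Col4a2 lay between 1.49 and 1.63 in the 12 libraries of days 0 to 3, and was 1.59 and 1.94 at day 5 of SDS alone and 1.30 and 1.32 with Topsym. Among type VI chains, Col6a3 to Col6a1 was 0.450 and 0.493 at day 0 of SDS alone and 0.811 and 0.819 with Topsym.

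**Figure D4:**
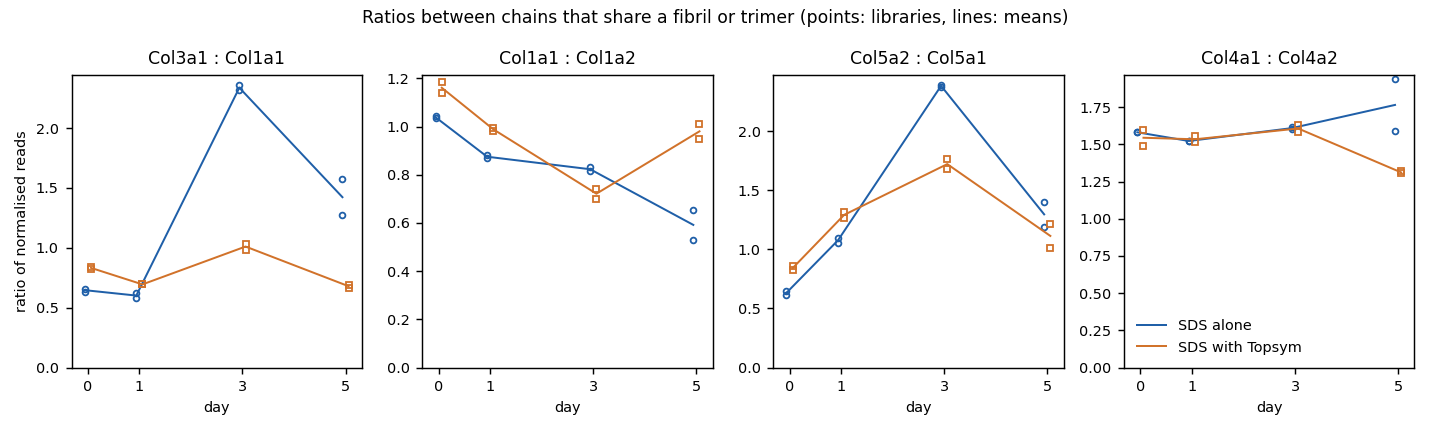
Ratio of normalised reads between partner chains in each library (points, lines through means) by day for SDS alone (blue) and SDS with Topsym (orange), on axes that start at 0. Col3a1 to Col1a1 reaches 2.32 and 2.36 at day 3 of SDS alone and 0.986 and 1.04 with Topsym, while Col4a1 to Col4a2 stays near its day 0 value through day 3.

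The type IV chains Col4a1 and Col4a2 make the network of nearly all basement membranes. With SDS alone they went up to day 3, while the fibrillar chains Col1a1, Col1a2, Col3a1 and Col5a1 went down. Col4a1 (ENSMUSG00000031502, chromosome 8, 11198423 to 11312826) had 4942 and 5164 at day 0 of SDS alone, 9448 and 9546 at day 1, 18191 and 17677 at day 3 and 1262 and 1453 at day 5. Col4a2 (ENSMUSG00000031503, chromosome 8, 11312805 to 11449287) had 3128 and 3264, 6207 and 6267, 11332 and 10957 and 792 and 749.7. Both genes were highest in the day 3 libraries and lowest in those of day 5, with no overlap between days. At day 3 Col4a1 had risen (log2 1.83, SE 0.06, adjusted p = 2.11e-13) and so had Col4a2 (log2 1.80, SE 0.05, adjusted p = 8.05e-14). From day 3 to day 5 both fell (-3.73 and -3.85).

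With Topsym the peak came at day 1. Col4a1 had 6815 and 7048, 13939.9 and 13712, 5782 and 5882 and 593 and 644 at days 0, 1, 3 and 5. Col4a2 had 4574 and 4408, 8967 and 9059, 3542 and 3721 and 449.8 and 494. The rises at day 1 were 1.00 and 1.01, beside 0.91 and 0.96 with SDS alone, and the interaction at day 1 was 0.09 (95% interval -0.09 to 0.26) for Col4a1 and 0.04 (95% interval -0.12 to 0.20) for Col4a2. Against SDS alone both were higher with Topsym at day 0 (0.46 and 0.49). At day 3 both chains were below their own day 0 (-0.25 and -0.31), and the interaction was log2 -2.08, SE 0.08, adjusted p = 1.02e-11 for Col4a1. The summed level of 8 endothelial markers, none of them at 0 in any library, was 3460.0 and 3559 at day 0, 3755 and 3827 at day 1, 10999 and 11191 at day 3 and 1196 and 1241 at day 5 of SDS alone, and 2526 and 2539, 4673 and 4778, 4377 and 4597 and 708 and 762 with Topsym. At day 3 of SDS alone 8 of 8 were higher, beside 25.4% of all genes. Their part in the result was not tested.

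The other 4 type IV chains, which take the place of Col4a1 and Col4a2 in some basement membranes, took other courses. Col4a5 had 415 and 399.9 at day 0 of SDS alone and 119.9 and 104 at day 3 (log2 -1.86, SE 0.18, adjusted p = 1.87e-07), and Col4a6, its neighbour on the X chromosome, had 748 and 644 and 198 and 238 (log2 -1.67, SE 0.30, adjusted p = 0.000171). With Topsym Col4a5 had 307 and 267 at day 0 and 168 and 176 at day 3, a smaller fall of 0.73, and the interaction was log2 1.13, SE 0.25, adjusted p = 0.00178. Its difference from SDS alone at day 3 (log2 0.62, adjusted p = 0.00948) lost its call without SDS day 3 replicate 2 (log2 0.52, adjusted p = 0.0804) or Topsym day 3 replicate 2 (log2 0.58, adjusted p = 0.0611). Col4a4 fell to 54.1 and 56.7 at day 5 of SDS alone from a mean of 197 ± 4.82 (SD, n = 2), a log2 change of -1.81. The Topsym libraries held 248 and 211 at day 0 and 330.4 and 327 at day 1, a difference of 0.52 (adjusted p = 0.0399) that was not called without Topsym day 0 replicate 2 (log2 0.40, adjusted p = 0.202), Topsym day 1 replicate 1 (log2 0.51, adjusted p = 0.146) or Topsym day 1 replicate 2 (log2 0.53, adjusted p = 0.134), nor with reads scaled to library totals (adjusted p = 0.0577). Col4a3 had 35.2 and 42.3 at day 0 and 173 and 171 at day 1 of the Topsym arm, which did not pass (adjusted p = 0.0642).

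Col7a1, the chain of the anchoring fibrils that tie the epidermal basement membrane to the dermis, had nearly the same course in both arms. It had 5264 and 5539.9, 4355 and 4397, 1372 and 1370.5 and 2491 and 2496 at days 0, 1, 3 and 5 of SDS alone. With Topsym it had 4782 and 4923, 3946 and 3961, 1453 and 1442 and 2495 and 2459. In both arms it was lowest at day 3 and partly back at day 5, with no overlap between days 3 and 5. The change from day 0 to day 3 was -1.98 with SDS alone and -1.74 with Topsym, and the rise from day 3 to day 5 was 0.86 and 0.77. With reads scaled to library totals that rise was smaller, at log2 0.60, adjusted p = 3.49e-09 with SDS alone and log2 0.27, adjusted p = 4.56e-05 with Topsym. The interaction at day 3 was small (log2 0.23, SE 0.06, adjusted p = 0.00733), and at day 5 it was 0.14 (95% interval 0.01 to 0.28) with an adjusted p of 0.088. With reads scaled to library totals the difference between the arms at day 5, -0.01 (95% interval -0.10 to 0.08) here, became log2 -0.24, adjusted p = 0.00031. The differences at days 0 and 1 were -0.15 (adjusted p = 0.0194) and -0.15 (adjusted p = 0.0491). The first lost its call without SDS day 0 replicate 2 (log2 -0.12, adjusted p = 0.167) or Topsym day 0 replicate 1 (log2 -0.13, adjusted p = 0.0823), and the second lost it without any 1 of the 4 day 1 libraries (adjusted p of 0.154 to 0.224).

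Col17a1 (ENSMUSG00000025064, chromosome 19, 47646344 to 47692094), the transmembrane collagen of the hemidesmosome, moved in opposite directions at days 1 and 3 of SDS alone. It had 36728 and 37645 at day 0, 49799 and 48799.8 at day 1, 20476 and 20042 at day 3 and 34946 and 35057 at day 5. Under Topsym the values were 35908 and 35599, 36474 and 36541, 34828 and 34511 and 26006 and 25048, so that neither the rise nor the dip was present and the day 5 libraries were lowest. With SDS alone the changes were 0.41 at day 1 and -0.88 at day 3. The interaction was log2 -0.38, SE 0.05, adjusted p = 5.48e-05 at day 1 and log2 0.83, SE 0.05, adjusted p = 1.44e-09 at day 3. At day 5 of SDS alone the change of -0.09 (adjusted p = 0.0421) lost its call without SDS day 0 replicate 2 (log2 -0.07, adjusted p = 0.178), SDS day 5 replicate 1 (log2 -0.08, adjusted p = 0.116) or SDS day 5 replicate 2 (log2 -0.09, adjusted p = 0.0989), and with reads scaled to library totals it was log2 -0.42, adjusted p = 8.14e-09. Of 10 basal keratinocyte markers, none of them at 0 in any library, 3 were higher and 6 lower at day 3 of SDS alone. Of all genes, 25.4% were higher and 24.2% lower there. With Topsym, 6 were higher and 2 lower at day 3, beside 27.0% higher and 28.2% lower of all genes. Their summed level was 340827 and 346914 at day 0 and 242645 and 246987 at day 3 of SDS alone, and their part in the result was not tested.

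Col18a1 and Col15a1 encode the collagens XVIII and XV of basement membranes, and they parted. Col18a1 had 2813 and 2986, 2384 and 2367, 3262 and 3016 and 3025 and 3176 at days 0, 1, 3 and 5 of SDS alone. The matching Topsym libraries had 2975 and 3088, 2241 and 2368, 3939 and 3752 and 3467 and 3414. It dipped at day 1 in both arms (-0.29 and -0.40) and was higher at day 3 with Topsym (log2 0.34, SE 0.05, adjusted p = 4.82e-05). Its rise at day 5 with Topsym (log2 0.18, adjusted p = 0.00716) depends on the scaling, since with reads scaled to library totals it was lower (log2 -0.40, adjusted p = 3.85e-06). At day 5 it was higher with Topsym than with SDS alone by 0.15 (adjusted p = 0.0331), but log2 -0.08, adjusted p = 0.231 with that scaling. This difference lost its call without SDS day 5 replicate 1 (log2 0.12, adjusted p = 0.181), Topsym day 5 replicate 1 (log2 0.14, adjusted p = 0.113) or Topsym day 5 replicate 2 (log2 0.16, adjusted p = 0.0649). The day 5 rise in the Topsym arm was also lost without Topsym day 0 replicate 1 (log2 0.16, adjusted p = 0.053). Col15a1 had 1819.8 and 1831, 722 and 717, 1003 and 1015 and 88.2 and 87.9 with SDS alone. With Topsym it had 2326 and 2311, 694 and 721, 217 and 209 and 22.2 and 14.4, a day 5 level 123-fold below its day 0. That fold rests on the few reads of day 5 and is imprecise. At days 3 and 5 its Topsym libraries were below those of SDS alone (-2.24 and -2.24), with interactions of log2 -2.58, adjusted p = 1.84e-08 and log2 -2.58, adjusted p = 2.82e-08.

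Type VI chains, which form beaded microfibrils around cells and fibrils of the dermis, fell in both arms, and Col6a3 differed most between them. Col6a3 (ENSMUSG00000048126, chromosome 1, 90765923 to 90843971) had 4717 and 4669, 1773 and 1836, 2743 and 2600.0 and 215 and 235 at days 0, 1, 3 and 5 of SDS alone. In the Topsym arm it had 10772 and 10367, 2759.7 and 2828, 734 and 629 and 133 and 158. With SDS alone it was higher at day 3 than at day 1 in both libraries, whereas with Topsym each later day was lower. At day 0 it was 2.25-fold higher with Topsym (log2 1.17, SE 0.08, adjusted p = 2.47e-08). The interaction was log2 -0.54, adjusted p = 0.00418 at day 1 and log2 -3.14, SE 0.12, adjusted p = 5.12e-12 at day 3. Col6a1 had 9569 and 10373 at day 0 and 606 and 645 at day 5 of SDS alone, and 13158 and 12789 and 498 and 545 with Topsym, and its interaction at day 3 was log2 -1.61, adjusted p = 1.75e-10. From day 0 to day 5 Col6a2 fell with log2 changes of -3.99 and -4.88 in the 2 arms. At day 5 the differences between the arms were -0.26 for Col6a1, -0.36 for Col6a2 and -0.63 for Col6a3. These 3 calls were lost when only the day 5 libraries were fitted (adjusted p = 0.116, 0.0775 and 0.0855). Col6a5 and Col6a6, close relatives of the third chain, had 164 and 131 (Col6a6) and 44.0 and 34.5 (Col6a5) at day 0 of SDS alone. Col6a5 had 0 reads at day 5 with Topsym, at least 10.3-fold lower than at day 0, taking 3 reads over the group as the floor.

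Col12a1 and Col14a1 lie on the surface of fibrils, and they differed in course. Col12a1 had 759 and 789, 532 and 575, 1307 and 1126 and 663 and 584 at days 0, 1, 3 and 5 of SDS alone. The matching Topsym libraries had 1029 and 901, 640.4 and 708, 643 and 656 and 607 and 647. It was highest at day 3 of SDS alone (log2 0.65, SE 0.10, adjusted p = 3.2e-05), while the Topsym libraries of day 3 were below their day 0 (log2 -0.57, adjusted p = 9.73e-05), and the interaction was log2 -1.22, SE 0.14, adjusted p = 2.16e-06. At day 5 of SDS alone the change of -0.31 (adjusted p = 0.00932) lost its call without SDS day 0 replicate 2 (log2 -0.29, adjusted p = 0.0562) or SDS day 5 replicate 2 (log2 -0.22, adjusted p = 0.099). At day 0 the difference between the arms was 0.31 (adjusted p = 0.0281), lost without SDS day 0 replicate 1 (log2 0.29, adjusted p = 0.15), SDS day 0 replicate 2 (log2 0.34, adjusted p = 0.0728) or Topsym day 0 replicate 1 (log2 0.22, adjusted p = 0.244). Col14a1 had 2225 and 2302, 1409 and 1569, 681 and 681 and 353 and 320.3 with SDS alone, lower at each later day. With Topsym it had 2542 and 2611 at day 0 and 121 and 115 at day 5. The interaction was log2 -1.04, adjusted p = 1.84e-06 at day 3 and log2 -1.69, adjusted p = 8.44e-09 at day 5. Col16a1, a further chain on fibrils and near basement membranes, fell by day 3 in both arms (-2.30 and -2.61), and its interaction at day 3 was -0.31 (95% interval -0.57 to -0.05) with an adjusted p of 0.06.

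Short-chain and transmembrane collagens were less abundant. Col8a2, a chain of hexagonal networks known from the cornea and vessels, had 332 and 407 at day 0 of SDS alone, 57.4 and 39.9 at day 3 and 11.4 and 11.3 at day 5. Its Topsym libraries had 224 and 231 at day 0 and 28.2 and 19.2 at day 5, a smaller fall, with an interaction of log2 1.66, SE 0.40, adjusted p = 0.00411. The day 5 levels rest on few reads in both arms, and the lower day 0 level with Topsym is part of that interaction. Its partner Col8a1 had 179 and 106 at day 0 and 252 and 327 at day 3 of SDS alone (log2 1.06, adjusted p = 0.0143), a call lost without SDS day 0 replicate 2 (log2 0.68, adjusted p = 0.184) or SDS day 3 replicate 2 (log2 0.87, adjusted p = 0.119). With Topsym Col8a1 had 54.9 and 63.7 at day 3, below SDS alone at that day (log2 -2.26, SE 0.33, adjusted p = 2.92e-05). The 2 partners thus stood on opposite sides of their day 0 at day 3 of SDS alone.

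Col13a1, a transmembrane chain at sites of cell adhesion, had 15.9 and 23.2 at day 0 of SDS alone and 86.6 and 90.4 at day 3 (log2 2.15, adjusted p = 0.0253). That call was lost without any 1 of the 4 libraries of days 0 and 3 (log2 1.88 to 2.41, adjusted p of 0.0549 to 0.131). Its Topsym libraries of day 3, at 10.6 and 10.7, were below those of SDS alone (log2 -2.94, adjusted p = 0.00411), while the interaction did not pass (adjusted p = 0.0551). Col23a1, another transmembrane chain, had 891 and 959, 1062 and 1143, 430.4 and 422 and 663 and 738 with SDS alone and 887 and 953, 636 and 664, 379 and 349.9 and 169 and 142 with Topsym. The arms overlapped at day 0 and were apart at day 5 (log2 -2.17, SE 0.10, adjusted p = 7.01e-11), and the interaction was log2 -0.75, adjusted p = 0.00116 at day 1. Col28a1, known from peripheral nerve, fell from 251 and 193 at day 3 to 41.3 and 5.67 at day 5 of SDS alone (log2 -3.72, adjusted p = 2.58e-05). This change was -5.05 without SDS day 5 replicate 1 and -2.39 without SDS day 5 replicate 2. Col20a1, a fibril-associated chain, had 122 and 125 at day 0 and 68.3 and 46.8 at day 5 of SDS alone, and 124 and 123 and 22.2 and 25.6 with Topsym. It was lower with Topsym at day 5 (log2 -1.21, adjusted p = 0.00293), though not when only the day 5 libraries were fitted (adjusted p = 0.115).

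Of the 44 chains, 8 had a mean of at most 20 normalised reads in every group. Col6a4, Col9a1, Col10a1, Col25a1 and Col26a1 were not tested, and their highest libraries held 8.04, 4.03, 5.83, 5.29 and 11.2 normalised reads. Col10a1 and Col9a1 are best known from cartilage. Col2a1, Col9a2 and Col19a1 passed, with highest libraries of 18.4, 15.4 and 16.8. Col9a2 and Col19a1 passed on 2 libraries of different groups. At these levels a change was not detectable with any precision. Col22a1, a chain of tissue junctions, had 16.7 and 12.8 at day 0 of SDS alone and 0 reads at day 5, which is at least 6.90-fold lower. Col9a3 had 37.9 and 24.0 at day 0 and 2 reads in all at day 5, a ratio of 21.6 with a 95% counting interval of 5.76 to 181.

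**Figure D5:**
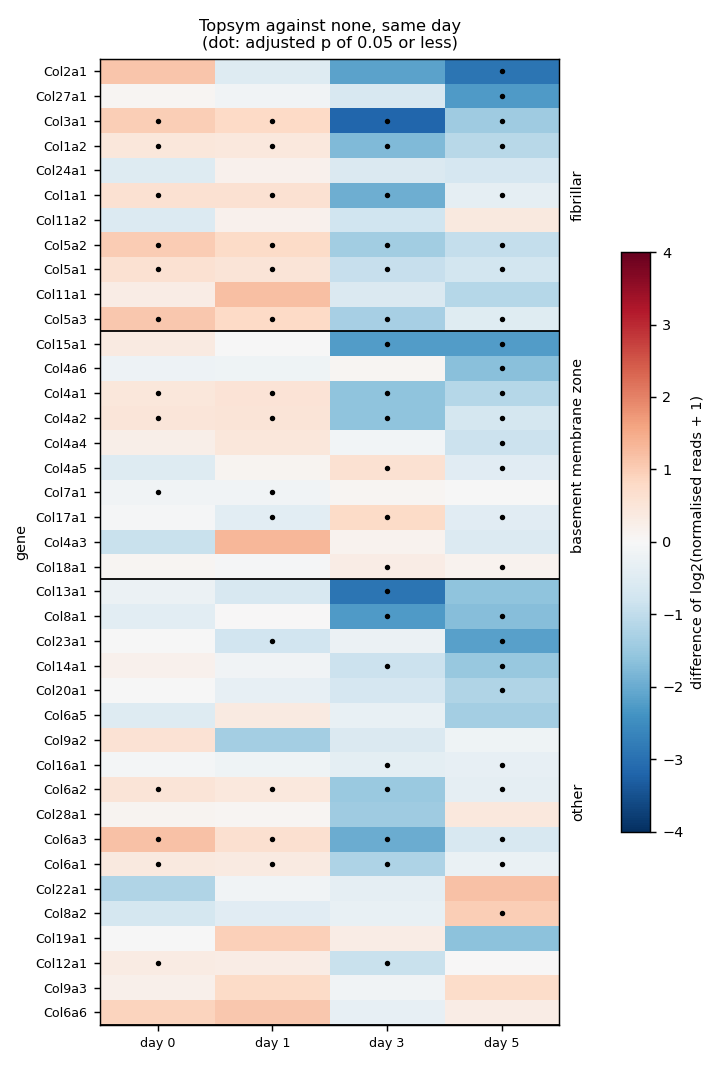
Difference of log2(normalised reads + 1) between SDS with Topsym and SDS alone at the same day (colour, -4 to 4) for the 39 chains tested, with a dot at an adjusted p of 0.05 or less. Fibrillar chains and Col6a1 to Col6a3 are red at days 0 and 1 and blue at days 3 and 5 where called, while Col17a1, Col18a1 and Col4a5 are called higher with Topsym at day 3.

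Among genes that fold and secrete collagen chains, most of those called were lower at days 1 and 5 of SDS alone. Of 20 such genes, 0 were higher and 11 lower at day 1 of SDS alone (median -0.43), beside 12.8% higher and 13.5% lower (26.2% in all) of all genes. At day 5 they were 3 and 15 (median -1.05), beside 30.7% higher and 35.8% lower (66.5% in all). The summed level of the 20 did not follow that count. With SDS alone it was 35495 and 36879 at day 0, 27643 and 27901 at day 1, 38666 and 40347 at day 3 and 38819.9 and 40321 at day 5. With Topsym it was 42071 and 42267, 31665 and 31969, 37096 and 37481 and 42989 and 44323 at the same days. Serpinh1, the collagen-specific chaperone Hsp47, fell, with changes of -1.70 at day 1, -1.21 at day 3 and -3.24 at day 5. P3h3, a partner in lysine hydroxylation of collagen, fell at day 5, by a log2 change of -3.58 with SDS alone and -4.03 with Topsym. P4ha3, a subunit of a prolyl hydroxylase, had the largest difference between the arms at day 3 among those named (log2 -4.44, SE 1.14, adjusted p = 0.00455), a call lost without Topsym day 3 replicate 1 (log2 -2.75, adjusted p = 0.105), while the difference was -6.12 without Topsym day 3 replicate 2. Fkbp10, a folding factor of the endoplasmic reticulum, differed by -1.88. At that day 3 of 20 were higher and 12 lower with Topsym (median -0.51), beside 20.8% higher and 22.9% lower (43.8% in all) of all genes. At day 0 the balance was the other way, 8 higher and 1 lower beside 10.8% higher and 11.2% lower (22.0% in all), with the lysyl hydroxylase gene Plod1 at 0.55 and Fkbp10 at 0.67.

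Genes that trim and cross-link collagen outside the cell were lower for 11 of 12 tested at day 5 of SDS alone (median -2.28) and for 12 of 12 with Topsym (median -3.66), beside 35.8% and 37.5% of all genes. Pcolce, which enhances the removal of the procollagen C-terminal propeptide, fell at days 1 and 5 of SDS alone (-1.14 and -4.15). The lysyl oxidase genes went separate ways: Lox rose by 2.32 at day 1 and 2.54 at day 3 of SDS alone, and Loxl4 by 1.29 and 1.48. Loxl2 was lower at day 5, at -3.87. At day 3, 11 of 12 were lower with Topsym than with SDS alone and 0 higher, beside 22.9% lower of all genes, Loxl3 among them at -2.01. Tll2 was too low to test.

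Among 8 genes of collagen breakdown and uptake, 5 were higher and 2 lower at day 3 of SDS alone, beside 25.4% higher and 24.2% lower (49.6% in all) of all genes. Mmp13, a collagenase, rose by 2.91 at day 3 and 5.04 at day 5, both from 20.4 normalised reads at day 0. Mmp8, the neutrophil collagenase, had 4 reads in all in the libraries of day 0 and 9220 at day 3 of SDS alone. Its log2 change of 10.93 rests on those 4 reads, and was 12.02 without SDS day 0 replicate 1 and 9.84 without SDS day 0 replicate 2. Mrc2, the endocytic receptor for collagen fragments, fell at both days 1 and 5 (-0.95 and -2.07). With Topsym, Mmp8 was lower than with SDS alone at day 3 (-5.99) and Mmp9, a gelatinase, as well (-3.79). Of 8 collagen receptor genes tested, 2 were higher and 3 lower at day 3 of SDS alone, near the 25.4% higher and 24.2% lower of all genes. At day 5, 5 of 8 were lower beside 35.8% of all genes. Itga1, a subunit of a receptor for type IV, rose by 0.79 at day 3 and fell by 2.69 at day 5. Ddr1, a receptor tyrosine kinase for collagen, fell by 1.16 at day 3. With Topsym 7 of 8 were lower at day 5 beside 37.5% of all genes, led by Lair1, an inhibitory receptor of immune cells, at -5.56, which was -4.11 without Topsym day 5 replicate 1 and -7.00 without Topsym day 5 replicate 2. Gp6, a platelet receptor, was too low to test.

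Fibroblast markers outside the collagen family were mostly lower at the later days as well. Of 12, none of them at 0 in any library, 9 were lower at day 1, 8 at day 3 (with 2 higher) and 12 at day 5 of SDS alone, beside 13.5%, 24.2% and 35.8% lower of all genes. Their summed level was 122878 and 125945 at day 0, 86017 and 86489 at day 1, 78698 and 81249 at day 3 and 18874 and 19118 at day 5. From day 1 to day 3 of SDS alone the sum thus changed little, while the fibrillar share of reads went from 0.583 and 0.594% to 0.197 and 0.204%. With Topsym the sum was 114641 and 115121 at day 0, 79209 and 80295 at day 1, 30696 and 31112 at day 3 and 10439 and 10621 at day 5. At day 0 it was lower with Topsym than with SDS alone, while the chains of types I, III and V and Col6a1 to Col6a3 were higher. At that day 6 of the 12 were higher and 2 lower with Topsym, beside 10.8% higher and 11.2% lower of all genes. Skeletal muscle markers did not keep to 1 order of the arms. At day 0, 8 of 8 were lower with Topsym, with sums of 150585 and 154038 against 428340.1 and 432298, beside 11.2% of all genes, and 7 of 8 adipocyte markers were lower. At day 1, 7 of 8 muscle markers were higher with Topsym, with sums of 451669.6 and 455184 against 307107 and 314977, beside 5.51% of all genes. The chains of types I, III and V and Col6a1 to Col6a3 were higher with Topsym at both days. At day 5, 8 of 8 muscle markers were lower than at day 0 with SDS alone, beside 35.8% of all genes. The part of the fibroblast, muscle and adipocyte markers in the collagen levels was not tested.

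The summed level of keratinocyte markers was highest at day 5, where the collagen share of reads was lowest. The 10 basal markers summed to 340827 and 346914 at day 0 and 846853 and 895920.2 at day 5 of SDS alone, and to 360039 and 363488 and 1233273 and 1294169 with Topsym. Of the 10, 8 were higher and 2 lower at day 5 with SDS alone, beside 30.7% higher and 35.8% lower of all genes. With Topsym 6 were higher and 4 lower, beside 32.8% and 37.5%. The 8 suprabasal markers, none of them at 0 in any library, summed to 479399 and 509695 at day 0 and 1060307 and 1124058 at day 5 of SDS alone, and to 463172 and 488219 and 1633974 and 1640515 with Topsym. All 8 were higher at day 5 in both arms, beside 30.7% of all genes with SDS alone and 32.8% with Topsym. The part of these markers in the collagen results was not tested.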

How the data were processed

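RNA of whole mouse skin was sequenced in 16 libraries, 2 in each of 8 groups, and the deposited table of 32078 genes was used. Per the submitters' processing notes, the tools were Trim Galore 0.6.7, HISAT2 2.2.1, featureCounts 2.0.3 and DESeq2 2.11.40.8, on mm10. The authors' deposited signal is the count of reads in a gene divided by a size factor of the library. Every value, multiplied back, gave a whole read count within 0.0001 of the size of that count, a limit that large counts meet in any case. The scaling equals DESeq2's median of ratios.

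Here log2(value + 1) of genes with at least 10 in at least 2 libraries was fitted with limma 3.58.1 in R 4.3.3, with 8 group means, a variance trend and 8 residual degrees of freedom. P-values were adjusted by Benjamini-Hochberg over 19189 genes in each of 15 comparisons, and 0.05 was the threshold. The fit was tested on simulated data. Other settings were TMM factors, a pseudocount of 4, testing every gene without the filter, a robust prior, a replicate block, a fit of just the libraries compared, a log2 change of at least 1, leaving out each library, and edgeR 4.0.16 and DESeq2 1.42.0 on the recovered reads. Scaling to library totals was added after the data were seen.

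Gene positions and exon lengths are those of GENCODE M21 on GRCm38 (mm10), and promoter sequences those of RefSeq on GRCm38.p6. An exon length counts each base covered by an exon of any transcript of the gene. The members, the lists of pathway genes and cell type markers and the tests were chosen with earlier results of these data known. Named in every group were 14 chains, in each comparison the 3 largest rises and falls among called chains with a mean of at least 50 and no overlap, and at most 4 genes of a pathway list by the same conditions. Other chains were named after their values were seen, and members at or under 20 by their range.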

Additional observations from a re-analysis of the deposited data

Results flagged for a closer look

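These are chains named by rule whose change from day 0 differed between the arms by the limma interaction, given as the log2 change with Topsym minus that with SDS alone. At day 1 the Topsym arm had a lower change for Col17a1 by -0.38, Col23a1 by -0.75 and Col6a3 by -0.54. At day 3 it had a lower change for Col3a1 by -4.15, Col6a3 by -3.14 and Col15a1 by -2.58. At the same day it had a higher change for Col4a5 by 1.13, Col17a1 by 0.83 and Col7a1 by 0.23. At day 5 it had a lower change for Col15a1 by -2.58, Col3a1 by -2.40 and Col27a1 by -2.37, and a higher one for Col8a2 by 1.66. The day 5 levels of Col15a1 and Col27a1 with Topsym, and of Col8a2 in both arms, rest on few reads. The causes of these differences were not tested.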

How the results depend on the processing

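The 15 counts of chains called were taken under 222 other settings, and 210 stayed within 1.5 times. The other 12 were these. With a log2 change of at least 1 also required, 7 of 39 chains were called at day 1 of SDS alone, beside 5.68% of all genes. At day 1 with Topsym 11 were called, beside 11.7%. Between the arms 3 were called at day 0, beside 4.87%. The counts between the arms were 0 at day 1, 13 at day 3 and 11 at day 5, and 0 in the interaction at day 1. Counts here without a share of all genes show only how calls move with the setting. When the fit held just the libraries under comparison, 10 were called between the arms at day 5 and 9 in the interaction at day 1. The latter count was 9 with edgeR, 9 with DESeq2 and 5 with reads scaled to library totals, against 3. The cause of these moves was not tested, apart from the stricter threshold itself and the fewer libraries fitted. Leaving out 1 library gave 18 to 19 chains at day 1, 23 to 24 at day 3, 30 to 34 at day 5 and 26 to 31 from day 3 to day 5 of SDS alone. With Topsym it gave 19 to 21, 25 to 26, 32 to 34 and 26 to 31. Between the arms it gave 11 to 13 at day 0, 13 to 13 at day 1, 19 to 21 at day 3 and 23 to 27 at day 5, and for the interaction 3 to 3, 18 to 20 and 18 to 23. A group with 1 library left is assumed to vary like the others. Replicate numbers did not pair the libraries: over 28 pairs the correlation of deviations was -0.03 to 0.03, and 0 were above 0.1. With the replicate number as a block, 27 chains were called at day 3 and 33 at day 5 of SDS alone, beside 49.1% and 66.1% of all genes. Over single chains, 8155 of 8640 changes under other settings kept their direction and their side of the threshold, 324 lost a call, 157 gained one and 4 reversed. Col18a1 turned to -0.23 and -0.40 at day 5 of SDS alone and with Topsym, and to -0.081 between the arms, with reads scaled to library totals. Between the arms at day 5, Col4a3 turned to 1.49 without Topsym day 5 replicate 1 and was -2.60 without replicate 2, and the cause was not tested. Of 3158 such changes of the named pathway genes 189 lost a call and 0 reversed, and of 888 counts over the pathway lists 110 moved by over 1.5 times. With 2 libraries a group and under 20 normalised reads, changes of the scarce chains could not be measured precisely.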

Other observations

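Markers of smooth muscle and pericytes, cells that also lie in type IV basement membranes, had a course with Topsym that rose with Col4a1 and Col4a2 at day 1. Their summed level was 16970.2 and 17296 normalised reads at day 0, 43865 and 43884 at day 1, 23939 and 24345 at day 3 and 23430.2 and 24220.5 at day 5 with Topsym. With SDS alone it was 35823 and 35846, 32630.3 and 33559, 44512 and 44999.8 and 11272 and 11864. Of the 6 markers, 5 were higher and 0 lower at day 1 with Topsym, beside 20.3% higher and 20.5% lower of all genes. With SDS alone they were 1 and 1, beside 12.8% and 13.5%. The rise at day 1 with Topsym was not particular to these markers. The skeletal muscle sum rose from 150585 and 154038 to 451669.6 and 455184, and the adipocyte sum from 12085 and 12420 to 41007 and 40857. The endothelial sum rose as well, while the fibroblast and keratinocyte sums fell. Schwann cell markers summed to 10498 and 10643 at day 0, 6656 and 6708 at day 1, 10132 and 10379.8 at day 3 and 4128 and 4137 at day 5 of SDS alone. Col28a1 had 93.4 and 74.5 normalised reads at day 0 and 251 and 193 at day 3. It was thus above its day 0 at day 3, where the Schwann cell sum was near that of day 0. The part of these markers in the collagen levels was not tested.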
